A study of Mus musculus with 4 samples.

Results

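DNA replication copies the genome in S phase by a fixed series of steps. Origins are licensed when the origin recognition complex, Cdc6 and Cdt1 load the Mcm2-7 ring helicase, and Cdc45 and the GINS complex then turn that ring into an active helicase. Primase with polymerase alpha starts each strand, polymerases delta and epsilon extend it on the Pcna sliding clamp, RPA coats single strands, and Fen1 and Lig1 join the lagging strand. In growing embryonic mesenchyme these genes are known as targets of E2F factors, and they are silenced when cells leave the cycle.

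The 38 replication genes described here were given as a list of names, with no threshold on their values, and all 38 were among the 28692 genes of the deposited matrices. By role, 11 were counted under origin licensing, 3 under helicase activation, 9 under primase and polymerases and 3 under single-strand binding. The clamp and clamp loader had 6, lagging strand maturation 2 and nucleotide supply 3, and 1, *Uhrf1*, acts on newly copied chromatin. *Mcm10* was counted under origin licensing, although it joins licensing to the start of synthesis. They lay on 14 chromosomes (GENCODE vM21, mm10). None shared exons on the same strand with another listed gene, and 10 overlapped exons of a gene on the opposite strand, *Mcm7* with *Cops6* and *Ap4m1* among them.

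Stromal cells were sorted from the intestine of untreated embryos at E12.5, midway through gestation, on an EYFP (C57BL/6) background, as live YFP+ and Itgb1+ cells without CD45, Ter119, CD31 or EpCAM. EYFP mice carried a reporter opened by a Cre, and which Cre was used is not given in the sources used here. Embryos were pooled within each experiment. There were 2 libraries of small intestine (SI) and 2 of large intestine with cecum (LI), and no other condition was compared. Parts of the labels mention adult or colonic tissue, so stage and region were taken from the titles.

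The analysis used 22094 cells (LI, 10709 and SI, 11385). Depth was lowest in LI replicate 1, at a median of 4219.5 unique molecular identifiers (UMIs) per cell, and reached 8384 to 8834 in the other libraries. Values of single libraries are listed in the order LI replicate 1, LI replicate 2, SI replicate 1, SI replicate 2 unless stated. Each pair of libraries shared 8 to 15 cell barcodes. Clustering without the replication genes gave 10 clusters. Of these, 6629 cells were smooth muscle cell (SMC)-like, 1334 mesothelial-like, 954 neural progenitor-like, 285 neuron-like and 8849 fibroblast (FB)-like, and 4043 cells stayed unnamed. FB-like denotes mesenchyme in which no other class led: summed FB markers reached 1446 to 2234 CPM (UMIs of a gene per 1000000 UMIs) there, against 1697 to 2844 CPM in SMC-like and 1834 to 3986 CPM in mesothelial-like cells. All 23 neuron markers were found in at least 10% of neuron-like cells, and 9 of 10 mesothelial markers in mesothelial-like cells. Other classes were less separate. By the same measure 14 of 16 SMC markers were found in SMC-like and 11 of 16 in FB-like cells. Progenitor-like cells held 7 of 10 progenitor markers and 11 of 23 neuron markers. Summed neuron markers reached 930 to 1680 CPM there, against 19455 to 23092 CPM in neuron-like cells.

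The start regions of 4 replication genes are printed because they carry words of the E2F type, the sequence class that S phase genes are known for. The genes are the 4 with the highest S over G1 fold change among those holding such a word within the stretch shown, which runs from 140 bases before to 20 bases after the RefSeq start (GRCm38.p6). Capitals mark an E2F word (TTTCCCGC, TTTCGCGC, TTTGCCGC or TTTGGCGC, on either strand) or a CCAAT word (on either strand).
Cdc6 (chr11:98908011-98908170, plus strand): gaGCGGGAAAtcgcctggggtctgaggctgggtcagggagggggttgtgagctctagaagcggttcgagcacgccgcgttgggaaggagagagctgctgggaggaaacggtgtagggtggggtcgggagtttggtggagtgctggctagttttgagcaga
Orc1 (chr4:108579314-108579473, plus strand): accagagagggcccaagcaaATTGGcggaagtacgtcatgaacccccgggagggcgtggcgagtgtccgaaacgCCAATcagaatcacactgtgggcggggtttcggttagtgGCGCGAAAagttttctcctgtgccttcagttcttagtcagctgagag
Pola1 (chrX:93632136-93632295, minus strand): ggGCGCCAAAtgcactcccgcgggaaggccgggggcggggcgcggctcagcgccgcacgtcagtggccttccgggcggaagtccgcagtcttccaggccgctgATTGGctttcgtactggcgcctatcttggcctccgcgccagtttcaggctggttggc
Pole2 (chr12:69228171-69228330, minus strand): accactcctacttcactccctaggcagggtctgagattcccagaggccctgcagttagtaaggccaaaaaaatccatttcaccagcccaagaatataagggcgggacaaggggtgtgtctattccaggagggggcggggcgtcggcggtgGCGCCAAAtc

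The E2F word stood at position -138 before the start of *Cdc6*, at -27 in *Orc1*, at -138 in *Pola1* and at 10 in *Pole2*. RefSeq promoter windows of 300 bases (250 before to 50 after the start) were at hand for 32 of the 38 genes. At least 1 E2F word was present for 14 of those 32 genes (43.8%), against 2.60% of all 27025 genes in that table. CCAAT was present for 65.6% of the 32 genes and for 41.1% of all genes. The word TTTGAA, the core of an element of mitotic promoters, was present for 4 of the 32 genes, against 20.2% of all genes and 72.2% of 18 mitosis genes. A match is a description of letters and not a bound site. The 14 genes with an E2F word had a median S over G1 log2 fold change of 1.28 (range 0.78 to 3.31), and the 18 without one had a median of 1.41 (range 0.51 to 3.70), so the ranges overlapped.

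Which replication genes followed the cell cycle was asked first. Cells were called S, G2M or G1 from scores over 25 S genes and 52 G2M genes, with no replication gene of the list among them, after thinning each cell to 3000 UMIs. Counts of FB-like cells were then summed per library and phase. All 38 replication genes were higher in S-called than in G1-called cells, by edgeR's quasi-likelihood test at an adjusted p under 0.05. Over all 11617 genes tested, 13.8% were called higher. The median log2 fold change of the 38 genes was 1.32, against -0.04 for all genes, and every gene was higher in S in 4 of 4 libraries, as 17.5% of all genes were. Of 35 other replication genes, 28 rose and 1 fell. Of 20 mitosis genes 19 also rose, but 17 of these 20 entered the G2M score that set G1 cells apart, so they are no independent measure. Phase calls rest on a cut-off: 16.1% of the 20718 kept cells with at least 3000 UMIs lay within 0.05 of the S cut-off.

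The 3 largest changes were in an initiation factor, a licensing factor and a nucleotide supply gene. For *Mcm10*, a factor that joins licensing to the start of synthesis (chr2:4989714-5012791), S-called cells had 43.0, 29.7, 30.3 and 33.8 CPM. G1-called cells had 4.62, 1.83, 3.73 and 1.65 CPM of *Mcm10* in the same order, and the phases did not overlap. Its log2 fold change was 3.70 ± 0.16 (SE; adjusted p = 4.3e-20 by edgeR). *Cdc6*, which loads the Mcm2-7 ring (chr11:98907801-98923940), lay between 58.7 and 77.8 CPM in S-called and between 4.99 and 10.9 CPM in G1-called cells, with a log2 fold change of 3.31 ± 0.11 (adjusted p = 3.0e-23 by edgeR). *Rrm2*, the regulated subunit of ribonucleotide reductase (chr12:24708241-24714146), had 204, 276, 373 and 265 CPM in S-called and 29.3, 39.2, 58.9 and 33.6 CPM in G1-called cells. Its log2 fold change was 2.84 ± 0.05 (adjusted p = 7.8e-31 by edgeR). In these 3 genes the lowest S library stood above the highest G1 library, as it did for 35 of the 38 and for 5.71% of all genes tested.

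Each of the other roles had a gene with a marked rise. *Cdc45*, part of the active helicase, rose by 2.78 ± 0.13 (log2, SE) and *Pole*, the catalytic subunit of polymerase epsilon, by 2.35 ± 0.14. *Uhrf1*, which brings maintenance methylation to copied DNA, rose by 2.28 ± 0.07 and *Fen1*, the flap endonuclease, by 1.94 ± 0.08. *Pcna* rose by 1.65 ± 0.07 and *Rpa2*, the middle subunit of RPA, by 1.47 ± 0.07. At the other end stood *Rfc1*, the large subunit of the clamp loader, with 207 to 247 CPM in S-called and 154 to 176 CPM in G1-called cells and a log2 fold change of 0.51 ± 0.04. The Mcm2-7 genes had log2 fold changes between 0.76 (*Mcm2*) and 1.37 (*Mcm5*).

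**Figure D1:**
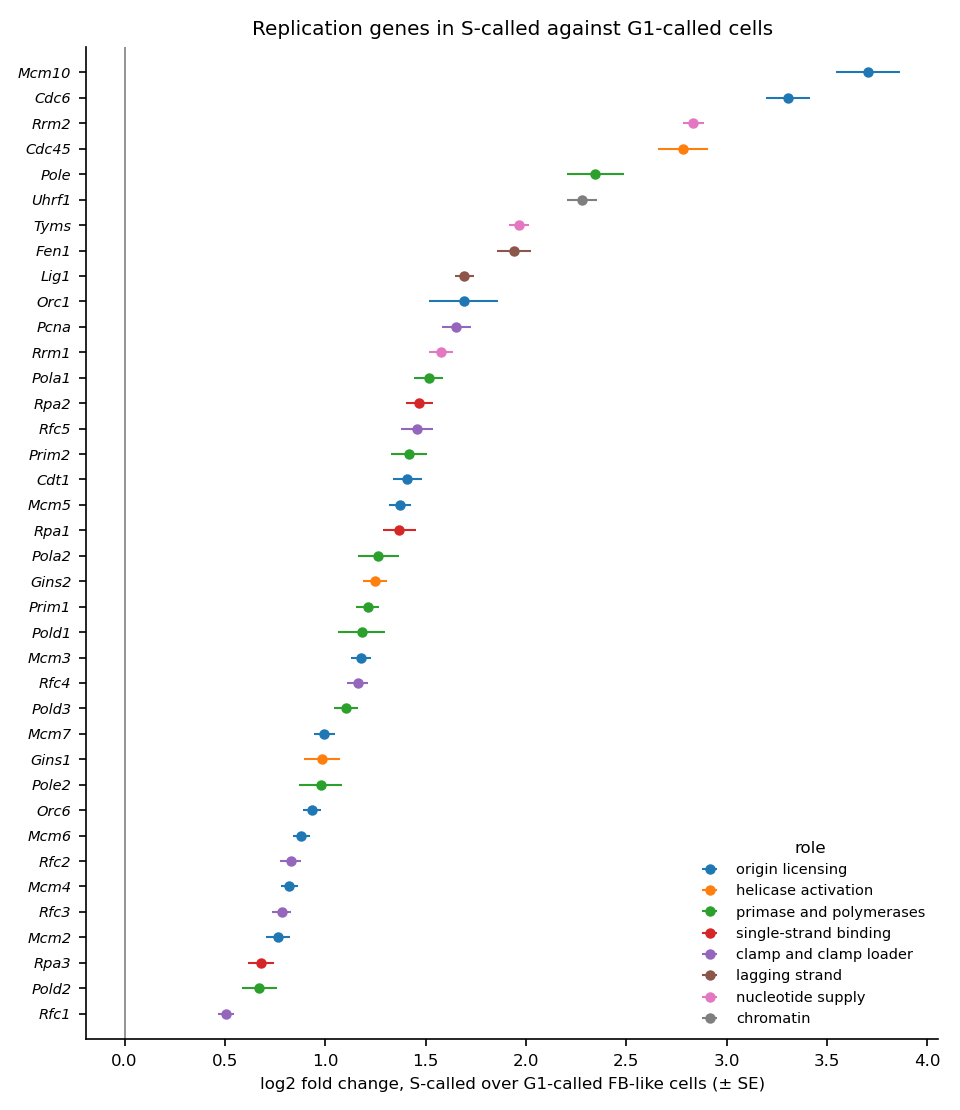
Log2 fold change (x axis) of each of the 38 replication genes (y axis) in S-called over G1-called FB-like cells, as edgeR estimates from 4 libraries, with bars of 1 standard error and colours for roles. All 38 points lie above 0, from 0.51 for *Rfc1* to 3.70 for *Mcm10*.

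The phases after S split the genes. In FB-like cells, 25 of 38 genes had more CPM in S-called than in G2M-called cells in 4 of 4 libraries, and 1, *Rrm1*, the large subunit of ribonucleotide reductase, had more in G2M in all 4. Over the 11617 genes tested 27.2% had more in S than in G2M in 4 of 4 libraries. Against G1, 31 of 38 genes were higher in G2M in 4 of 4 libraries, as were 17.1% of all genes tested. Several Mcm2-7 genes went the other way: mean levels in G1, S and G2M were 154, 277 and 99.7 CPM for *Mcm6* and 68.3, 114 and 42.04 CPM for *Mcm2*. *Mcm2*, *Mcm4* and *Mcm6* were lower in G2M-called than in G1-called cells in 4 of 4 libraries. The shares of all genes that were lower in G2M than in G1, or higher in G2M than in S, are not given here. *Cdc6* went from 66.9 CPM in S to 23.5 CPM in G2M, and *Cdt1* from 87.9 to 37.5 CPM. By contrast *Rrm2* still stood at 234 CPM in G2M against 279 CPM in S, *Tyms*, the thymidylate synthase, at 246 against 241 CPM, and *Mcm10* at 33.9 against 34.2 CPM. These phase means are descriptions without a test.

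Neurons leave the cycle for good, and neuron-like cells were compared with neural progenitor-like cells of the same libraries. All 38 replication genes fell, with a median log2 fold change of -2.01 against -0.01 for all 9501 genes tested, of which 30.5% were called lower. In 37 of 38 genes the 2 groups of libraries did not overlap, and all 38 were lower in 4 of 4 libraries. Over all genes tested 16.9% were lower without overlap and 26.5% were lower in 4 of 4 libraries. In bulk sums, fewer cells in cycle and less RNA per cell cannot be told apart. Of 33 other replication genes tested, 27 fell and 2 rose, and all 20 mitosis genes fell. Over all 9501 genes tested 2802 were called higher, and among 6 cell cycle inhibitors tested 4 rose: *Rb1* by 1.71 ± 0.18 (log2, SE), *Cdkn2d* by 1.63 ± 0.12, *Btg1* by 0.54 ± 0.08 and *Cdkn1b* by 0.51 ± 0.12.

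The largest fall was in *Mcm3*, a subunit of the helicase ring (chr1:20802968-20820312). Neural progenitor-like cells held 231, 164, 215 and 186 CPM of it. Neuron-like cells held 41.7, 20.2, 11.9 and 10.8 CPM, and the log2 fold change was -3.63 ± 0.19 (SE; adjusted p = 1.2e-09 by edgeR). *Cdc6* went from 36.6 to 63.0 CPM in progenitor-like cells to 0.96 to 6.93 CPM in neuron-like cells, a log2 fold change of -3.31 ± 0.26 (adjusted p = 8.9e-08 by edgeR) that rested on 1 to 8 UMIs per library in neurons. *Pole2*, the second subunit of polymerase epsilon, had 1, 6, 1 and 1 UMIs in the 4 neuron-like sums, so its log2 fold change of -3.40 ± 0.40 (adjusted p = 5.0e-06 by edgeR) rested on few counts. The least affected genes fell too: *Rfc3* by 0.99 ± 0.13 on the log2 scale and *Orc6*, a subunit of the origin recognition complex, by 1.03 ± 0.09.

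By role, the median log2 fold change in neuron-like cells ran from -1.43 for the clamp and clamp loader to -2.47 for origin licensing. The other role leaders were *Cdc45* (-2.54 ± 0.29), *Rpa2* (-2.43 ± 0.15), *Lig1*, the replicative ligase (-2.31 ± 0.17), *Rrm2* (-2.27 ± 0.17), *Uhrf1* (-2.0 ± 0.17) and *Pcna* (-1.97 ± 0.16). Phase makeup moved with this comparison. S-called cells made up 28.0% to 32.7% of neural progenitor-like and 0.00% to 3.74% of neuron-like cells. Among cells called G1 alone, 20 of the 21 genes tested fell, with a median of -1.46, where 18.9% of all genes tested were called lower. That fit had 11 to 43 G1-called progenitor-like cells per library, and the other genes of the list did not pass its filter on low counts. A gene could pass that filter through its counts in progenitor-like cells alone. The 20 of 21 therefore describe the genes that passed and are no independent support.

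**Figure D2:**
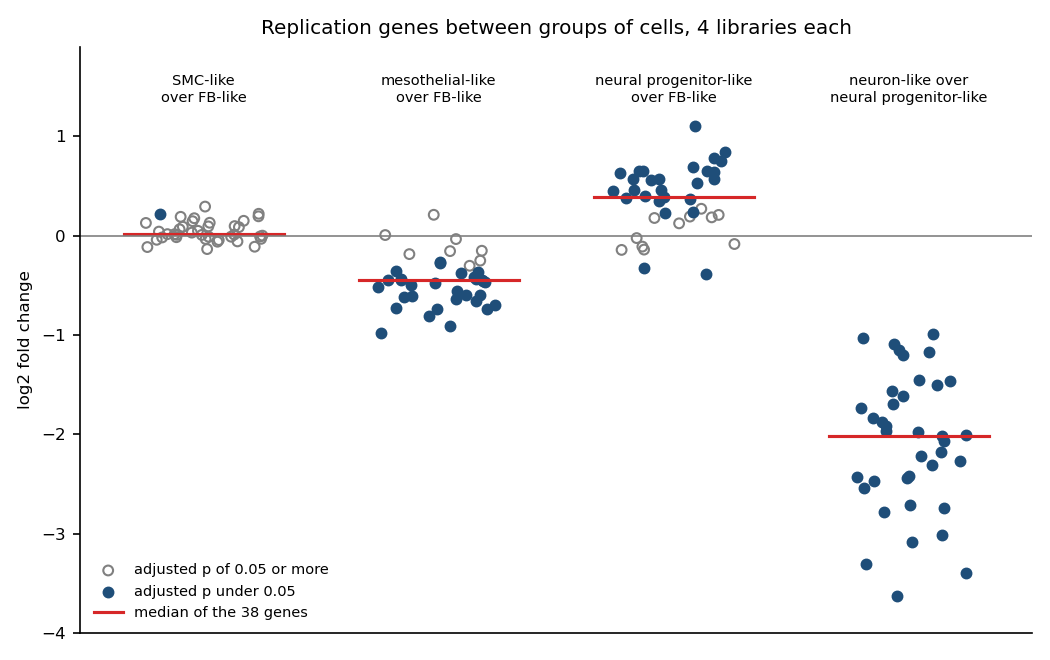
Log2 fold changes (y axis) of the 38 replication genes, 1 point per gene, in 4 comparisons of cell groups (columns), each fitted by edgeR with 4 libraries per group, with filled points for an adjusted p under 0.05 and a red line at the median of the 38. The medians are 0.02 for SMC-like over FB-like, -0.45 for mesothelial-like over FB-like, 0.39 for neural progenitor-like over FB-like and -2.01 for neuron-like over neural progenitor-like cells.

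Neural progenitor-like cells were next compared with FB-like cells. Of the 38 genes 25 were higher and 2 lower, with a median log2 fold change of 0.39 against -0.02 for all genes, and 25.4% and 27.1% of the 12116 genes tested were called higher and lower. *Uhrf1* led (chr17:56303321-56323486). Its levels were 210, 178, 149 and 130 CPM in progenitor-like cells, and 91.5, 75.3, 89.3 and 74.5 CPM in FB-like cells, so the groups did not overlap. The log2 fold change was 1.10 ± 0.14 (SE; adjusted p = 0.00044 by edgeR). *Mcm10* was at 34.4 to 39.0 CPM against 18.8 to 25.3 CPM (0.84 ± 0.11), and *Rrm1* at 165 to 195 CPM against 88.4 to 138 CPM (0.78 ± 0.10).

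The other role leaders among progenitor-like cells rose by less. They were *Fen1* (0.69 ± 0.11), *Pcna* (0.66 ± 0.13), *Cdc45* (0.65 ± 0.11), *Pola2*, the second subunit of polymerase alpha (0.64 ± 0.11), and *Rpa2* (0.56 ± 0.11). The 2 genes that were lower were *Mcm4*, at 102 to 124 CPM against 155 to 159 CPM (-0.39 ± 0.09, adjusted p = 0.0097 by edgeR), and *Rfc3*, at 72.7 to 111 CPM against 100 to 136 CPM (-0.33 ± 0.09, adjusted p = 0.019). The 5 other Mcm2-7 genes were higher (log2 fold changes of 0.35 to 0.57). Of 35 other replication genes 14 rose and 2 fell.

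Phase shares differed here as well. G1-called cells were 6.55% to 13.5% of progenitor-like and 28.9% to 52.9% of FB-like cells. In S-called cells alone 17 genes were higher and 3 lower (17.8% and 20.5% of all genes called higher and lower, median 0.22), whereas in G1-called cells alone 4 of 35 tested were higher and 1 lower (8.09% and 14.0% called higher and lower, median -0.02). *Pcna* and *Pola2* had log2 fold changes of -0.07 and -0.19 in G1-called cells alone. The part of phase makeup in the whole-group difference was not tested further.

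The mesothelium is the epithelial sheet that covers the gut. Of the 38 genes, 30 were lower in mesothelial-like than in FB-like cells and none was called higher, with a median log2 fold change of -0.45 against -0.03 for all genes. Of the 12278 genes tested, 16.4% were called lower and 2286 genes were called higher. *Cdc6* led: mesothelial-like cells held 21.9, 13.6, 14.9 and 7.65 CPM, and FB-like cells 32.9, 25.4, 34.4 and 26.3 CPM. These ranges did not meet, and the log2 fold change was -0.98 ± 0.17 (SE; adjusted p = 0.0020 by edgeR). *Rrm2* was at 52.3 to 112 CPM against 114 to 252 CPM (-0.91 ± 0.22, adjusted p = 0.010), and *Mcm10* at 3.82 to 19.9 CPM against 18.8 to 25.3 CPM (-0.81 ± 0.24, adjusted p = 0.026), where the groups overlapped. Without SI replicate 1 only 12 genes were called, with a median of -0.38, and with no library block fewer still. The share of all genes called in those fits is not given here, so the loss of calls may be shared by all genes.

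All 3 helicase activation genes, both lagging strand genes and all 3 nucleotide supply genes fell, and so did 8 of 11 licensing genes. Leaders of the other roles were *Uhrf1* (-0.74 ± 0.12), *Cdc45* (-0.73 ± 0.19), *Pola1*, the catalytic subunit of polymerase alpha (-0.73 ± 0.18), *Lig1* (-0.70 ± 0.13), *Rfc3* (-0.65 ± 0.10) and *Rpa1*, the large RPA subunit (-0.47 ± 0.15). Not called were *Cdt1* (0.21 ± 0.11), the partner of Cdc6 in loading the ring, and *Mcm2* (0.01 ± 0.10). Of 35 other replication genes 16 fell and 1 rose, and 16 of 20 mitosis genes fell.

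Fewer mesothelial-like cells were called S, 11.8% to 25.7% against 25.8% to 35.0% of FB-like cells. Within S-called cells alone 3 of the 38 genes were lower (6.65% of all genes called lower), with a median of -0.16, and *Rpa1* had a log2 fold change of 0.01. Within G1-called cells alone 21 of 37 tested were lower and 1 higher (12.0% and 16.1% of all genes called lower and higher), with a median of -0.46. The S-called fit used 20 to 147 mesothelial-like cells per library and the G1-called fit 122 to 269, so counts were fewer in the former.

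**Figure D3:**
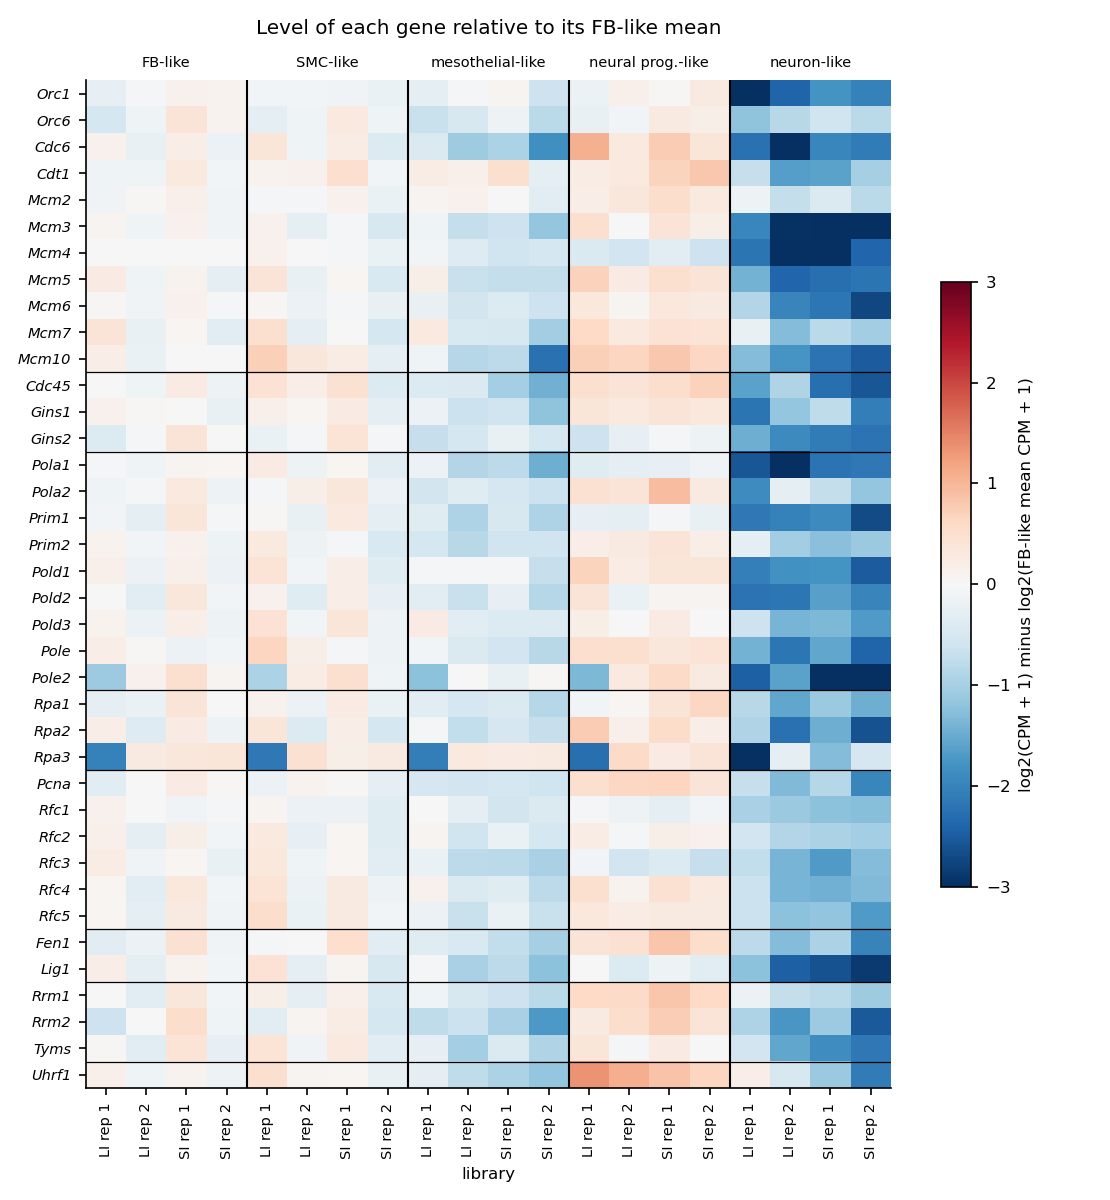
Level of each replication gene (rows, ordered by role with lines between roles) in each library (columns, 4 per group of cells), as log2(CPM + 1) minus log2 of its mean FB-like CPM + 1; values beyond 3 in either direction are drawn at the end of the colour scale. Neuron-like columns are blue for nearly every gene, and *Rpa3* and *Pole2* are blue in LI replicate 1 in each group.

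SMC-like cells, which form the muscle coat, had replication gene levels close to those of FB-like cells in the grouping used here. Only *Cdt1* was called higher, where 10.2% of 12981 genes were, and the median log2 fold change was 0.02 against 0.01 for all genes. *Cdt1* had 53.6, 55.3, 71.2 and 47.1 CPM in SMC-like cells, and 45.7, 46.0, 61.3 and 47.7 CPM in FB-like cells. Its groups overlapped and SI replicate 2 went the other way, with a log2 fold change of 0.21 ± 0.06 (SE; adjusted p = 0.044 by edgeR). No gene was called with DESeq2, with no library block, with thinned sums or with doublet-scored cells kept. The role leaders that were not called lay between 0.05 for *Rpa1* and 0.29 for *Mcm10* on the log2 scale, and *Rfc1*, *Mcm3* and *Orc1* had values of -0.11, -0.13 and -0.11. Of the mitosis genes 8 of 20 were higher and none lower.

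This result depended on the clustering, which had cell cycle scores regressed out. Without that regression 34 of the 38 genes were lower in SMC-like cells, where 16.0% of genes were called lower, and at the higher clustering resolution of 0.8 the number was 31, where 13.8% were. In those clusterings the cells that counted as FB-like included clusters with many cells that were SMC-like in the grouping used here. The one led by *Nusap1*, *Top2a* and *Cenpf* without regression held 5579 cells, of which 50.3% were SMC-like in the grouping used here. At resolution 0.8 the clusters led by *Hist1h2ae* and *Esco2* (1695 cells) and by *Tuba1c* and *Pif1* (515 cells) were 92.3% and 90.1% SMC-like in the grouping used here, and one led by *Egr4* and *Nr4a1* (1547 cells) was 51.7%. In S-called cells alone, in the grouping used here, 10 replication genes were higher in SMC-like cells (7.48% of all genes called higher), with a median of 0.14. In G1-called cells alone 2 were lower, where 7.77% of all genes were, with a median of -0.15.

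Whether replication genes differ between SI and LI was asked in each group of cells. None of the 38 genes passed the test in FB-like, SMC-like, mesothelial-like or neural progenitor-like cells or in all kept cells together. Over all genes tested 4.14%, 1.42%, 1.11%, 0.488% and 1.94% were called in those 5 comparisons. At an unadjusted p under 0.05 the replication genes numbered 8 in FB-like cells and 2 in each of the others, and DESeq2 called 1 (*Orc6*) in FB-like cells and 0 in the others. Over all genes tested, the counts at that unadjusted p were 2242 of 13344 in FB-like, 1571 of 12772 in SMC-like, 1154 of 10665 in mesothelial-like, 797 of 10458 in neural progenitor-like and 2177 of 14920 in all kept cells. With the replicate number as a block, 1 gene was called in FB-like, 2 in mesothelial-like, 1 in neural progenitor-like and 0 in the other comparisons. The share of all genes called in those fits is not given here. The labels do not say whether a replicate number marks a shared experiment. Each region had 2 libraries, so real differences may have been missed.

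In FB-like cells 34 of 38 genes had a higher estimate in SI, with a median log2 fold change of 0.27 against 0.01 for all genes. Of all 13344 genes tested, 6767 had a higher estimate in SI. So did 27 of 35 other replication genes (median 0.22, 1 called) and 20 of 20 mitosis genes (median 0.46, none called). Among the 38, the gene nearest to a call was *Orc6*, at 113 and 149 CPM in LI and 215 and 174 CPM in SI (0.72 ± 0.20, adjusted p = 0.091 by edgeR). Its regions did not overlap, but it was not called. *Rrm2* was at 114 and 173 CPM in LI and 252 and 161 CPM in SI (0.68 ± 0.26), and *Fen1* at 46.2 and 52.0 CPM against 81.0 and 54.4 CPM (0.61 ± 0.23). For *Rrm2* the regions overlapped, and for *Fen1* SI replicate 2 stood just above LI. The other role leaders were *Gins2* of the GINS complex (0.57 ± 0.21), *Pcna* (0.46 ± 0.19) and *Uhrf1* (0.12 ± 0.20). For *Orc6*, *Rrm2* and *Fen1* SI replicate 1 was the highest library. It also had the lowest share of G1-called FB-like cells, 28.9% against 42.5% to 52.9%. The part of phase makeup in these estimates was not tested.

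The median was 0.17 in all kept cells, 0.03 in SMC-like, 0.02 in neural progenitor-like and -0.25 in mesothelial-like cells. Of the role leaders, *Gins2* had 0.55 ± 0.20 in all kept cells and 0.48 ± 0.20 in SMC-like cells, and *Orc6* 0.61 ± 0.19 and 0.46 ± 0.19. In mesothelial-like cells *Mcm10* (-0.85 ± 0.47) and *Cdc45* (-0.76 ± 0.32) had the lowest estimates, and in neural progenitor-like cells *Uhrf1* had -0.52 ± 0.21 and *Rpa1* 0.49 ± 0.21. None of these passed the test. Without LI replicate 2, 11 genes were called in mesothelial-like cells, 9 of them lower and 2 higher in SI, where 4.46% and 7.01% of all genes were called lower and higher, and LI replicate 1 alone then stood for LI, with the spread taken from the SI pair.

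LI replicate 1 stood apart for 2 replication genes. *Rpa3*, the small RPA subunit (chr6:8255936-8259173), had 13.9 CPM in FB-like cells of LI replicate 1 and 71.9, 75.3 and 77.3 CPM in LI replicate 2 and SI replicates 1 and 2. In SMC-like cells it had 12.7 CPM against 67.7 to 82.7 CPM, in mesothelial-like cells 13.4 against 70.9 to 72.8 CPM and in neural progenitor-like cells 11.7 against 71.0 to 88.5 CPM. *Pole2* had 8.75 CPM in FB-like cells of LI replicate 1 and 20.8 to 27.7 CPM in the others. In FB-like cells no other replication gene had a library below 50% of each of the 3 others. Over 8526 genes with a mean of at least 10 CPM in FB-like cells, LI replicate 1 was below 50% of each other library for 121 genes (1.42%), against 2, 17 and 15 genes for LI replicate 2 and SI replicates 1 and 2. The labels name a 3′ and a 5′ kit without saying which library used which, so its part in this was not tested.

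The SI over LI estimate of both genes rested on that library. In FB-like cells *Rpa3* had a log2 fold change of 0.99 ± 0.51 and *Pole2* of 0.82 ± 0.35, and without LI replicate 1 the same values were 0.26 and 0.34. Without LI replicate 2 they were 2.58 and 1.59, and LI replicate 1 was then the only LI library, with the spread taken from the SI pair. Without SI replicate 2 they were 0.99 and 1.03, and both genes passed the threshold (adjusted p = 0.040 and 0.044 by edgeR), with 1 SI library and the spread taken from the LI pair. These were the largest SI over LI estimates in FB-like cells among the 38, and neither was called with all 4 libraries. *Rpa1* and *Pole*, of the same complexes, were not below 50% of the other libraries in LI replicate 1.

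**Figure D4:**
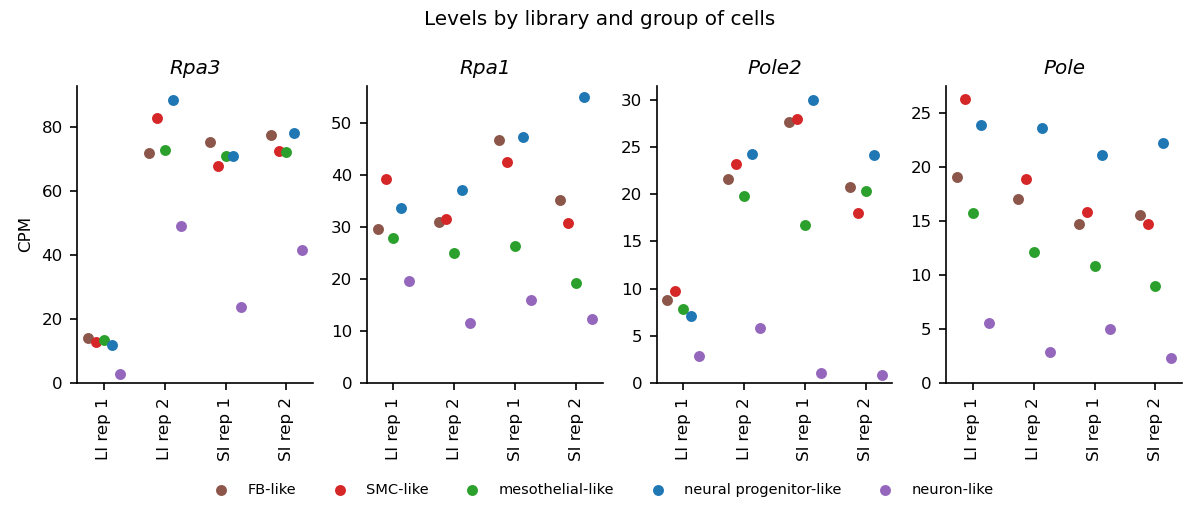
Level in CPM (y axis, from 0, with its own scale per gene) of *Rpa3*, *Rpa1*, *Pole2* and *Pole* by library (x axis) and group of cells (colours). *Rpa3* lies at 2.78 to 13.9 CPM in LI replicate 1 and at 23.7 to 88.5 CPM in the other libraries.

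The SI over LI difference itself was compared between SMC-like and FB-like cells by an interaction term. Of 38 genes, 3 differed, all with a smaller SI over LI change in SMC-like cells, where 0.934% of 13600 genes were called in that direction. At an unadjusted p under 0.05 there were 20 of the 38, and 1882 of the 13600 genes tested, and the median of the 38 was -0.28 against -0.01 for all genes. *Rrm2* had 141, 184, 205 and 122 CPM in SMC-like cells, and 114, 173, 252 and 161 CPM in FB-like cells. Its interaction was -0.55 ± 0.08 (log2, SE; adjusted p = 0.026 by edgeR), followed by *Pcna* (-0.43 ± 0.08, adjusted p = 0.050) and *Tyms* (-0.42 ± 0.07, adjusted p = 0.042). Role leaders that were not called were *Mcm10* (-0.59), *Cdc45* (-0.43), *Rpa1* (-0.38), *Uhrf1* (-0.35), *Pola1* (-0.34) and *Lig1* (-0.31). Of the mitosis genes 15 of 20 were called in the same direction. None of the 38 was called without SI replicate 1, without SI replicate 2, in S-called cells alone or in G1-called cells alone, and 1 was called without LI replicate 1. None was called in the clustering at resolution 0.8, where *Rrm2* turned to 0.12, or in that with no cell cycle regression, where *Rrm2* turned to 0.37, *Pcna* to 0.0371 and *Tyms* to 0.016. S-called cells were 33.7%, 24.9%, 29.99% and 22.3% of SMC-like cells, and 30.6%, 25.8%, 35.0% and 26.8% of FB-like cells.

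Replication genes were also counted per cell. In cells thinned to 3000 UMIs a mean of 8.42 to 9.51 of the 38 genes was detected in neural progenitor-like cells, 6.54 to 8.57 in FB-like, 5.98 to 8.47 in SMC-like, 4.47 to 6.56 in mesothelial-like and 2.50 to 3.71 in neuron-like cells, over the 4 libraries. FB-like and SMC-like ranges overlapped, and neuron-like libraries lay below every other group. Within FB-like cells, S-called cells held 9.50 to 10.9 genes and G1-called cells 4.50 to 5.82. With 2 libraries a side, an exact permutation test between regions cannot go below p = 0.3333, so none was made.

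**Figure D5:**
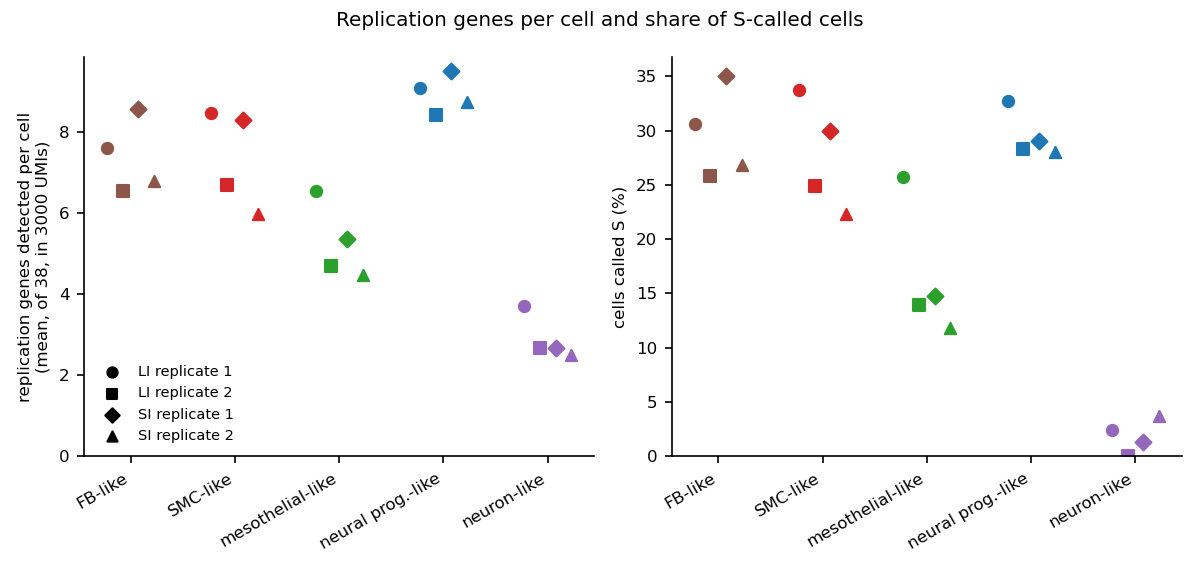
Left, mean number of the 38 replication genes detected per cell in 3000 UMIs (y axis, from 0), and right, share of cells called S in % (y axis, from 0), by group of cells (x axis) and library (symbols). Neuron-like cells are lowest in both, at 2.50 to 3.71 genes and 0.00% to 3.74% of cells.

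Shares of cells with a UMI depended on depth. The median share over the 38 genes at 3000 UMIs was 21.9% in neural progenitor-like, 19.7% in SMC-like, 19.0% in FB-like, 13.6% in mesothelial-like and 6.04% in neuron-like cells. *Mcm6* was found in 34.1% to 40.5% of FB-like cells at 3000 UMIs, in 50.3% to 58.6% of S-called FB-like cells and in 29.9% to 36.8% of G1-called ones. In neuron-like cells, of which few were called S, its share was 3.74% to 19.5%, with median depths of 8197 to 18012 UMIs before thinning against 3881 to 8859 in FB-like cells. Unthinned, the *Mcm6* shares were 45.3% to 70.3% in FB-like and 13.9% to 39.5% in neuron-like cells. *Cdc6* was found in 5.75% to 8.21% of FB-like, 13.6% to 17.6% of S-called FB-like and 1.29% to 2.51% of G1-called FB-like cells at 3000 UMIs, and in 0.00% to 1.32% of neuron-like cells. Unthinned, *Cdc6* was in 10.9% to 21.6% of FB-like and 1.79% to 4.65% of neuron-like cells. A cell with a UMI need not express the gene, since free RNA also gives UMIs, and its part in the neuron-like shares was not tested. All 38 genes had a lower mean share in neuron-like than in neural progenitor-like cells, and 37 in mesothelial-like than in FB-like cells. All 38 had a higher mean share in S-called than in G1-called FB-like cells. These directions were not counted over all genes.

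Among the unnamed clusters, the lowest level of replication genes was in 1 (led by *Hist1h2bc*, *Epcam*, *Ccnb2* and *Cenpa*). Summed over the 38 genes it had 1397 to 1793 CPM, against 2920 to 3761 CPM in FB-like cells, and 1.47% to 7.97% of its cells were called S and 67.4% to 76.1% G2M. The cluster led by *Foxd1* and *Shisa3* had 2641, 1885, 3119 and 2959 CPM, less than FB-like cells in 4 of 4 libraries. The cluster led by *Bmp3* and *Col14a1* had 3269 to 3903 CPM, more than FB-like cells in 4 of 4 libraries. Neural progenitor-like cells had 3527 to 4051 CPM and neuron-like cells 951 to 1664 CPM.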

How the data were processed

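Sorted stromal cells of 4 libraries were analysed. The authors deposited raw UMI counts per gene and cell, made with Cell Ranger 3.1.0 on mm10, and analysed them with Seurat 3. Kept cells had at least 1000 genes and at most 10% mitochondrial UMIs, which left 23188 of 24485 barcodes. Doublets were scored with Scrublet in scanpy 1.11.5 at an expected rate of 0.8% per 1000 cells. Its automatic threshold marked 1 to 6 cells per library, so the top-scoring 183 to 348 cells at that rate were removed instead. Libraries held 31630548 to 62886525 UMIs. Clustering used Seurat 5.3.0 (anchors, 30 components, resolution 0.3, cell cycle scores regressed out), without the 38 genes. Classes were named from marker lists.

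Counts were summed per library and group and fitted with edgeR 4.0.16 (quasi-likelihood, Benjamini-Hochberg over all genes tested, threshold 0.05) in R 4.3.3. Group and phase comparisons had the library as a block. Levels are CPM. Shares of cells used 3000 UMIs per cell, which left out 1376 cells, 982 of them from LI replicate 1. Genes named in the text were, per comparison, the 3 called genes with the largest change in each direction at a mean of at least 10 CPM and, for each role, the gene with the largest absolute change. The least changed genes, *Rrm1* and the Mcm2-7 genes were added after their values were seen. The fits were tested on simulated data.

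The members and lists were chosen with earlier results of these data known. Alternatives were DESeq2 1.42.0, no count filter, each library left out, other blocks, thinned sums, other clusterings, phases, doublets and cell filters. Adding the unnamed mesenchymal clusters to FB-like cells was an alternative chosen after seeing the data. Embryos were pooled in 2 independent experiments. In SI over LI comparisons p-values and standard errors measure the spread between libraries. In group, phase and interaction comparisons the library was a block. There they measure how far the difference within a library varied from library to library. Standard errors were derived from the fold change and the test statistic of each fit.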

Additional observations from a re-analysis of the deposited data

Results flagged for a closer look

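In 3 replication genes the SI over LI change differed between SMC-like and FB-like cells by the interaction test in edgeR. The difference of log2 fold changes was -0.55 for *Rrm2*, -0.43 for *Pcna* and -0.42 for *Tyms*. In FB-like cells their SI over LI log2 fold changes were 0.68, 0.46 and 0.41, and in SMC-like cells they were 0.15, 0.04 and -0.02, none of which passed the test on its own. None of the 3 was called without SI replicate 1, without SI replicate 2, in S-called or G1-called cells alone, at clustering resolution 0.8 or with no cell cycle regression. *Rrm2* then turned to 0.12 at resolution 0.8, 0.37 with no regression and 0.28 in G1-called cells. Each group had 2 libraries per region, too few for the test of an outlying sample within a group. None of the 3 genes had a library below 50% of each of the 3 others in FB-like or SMC-like cells.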

How the results depend on the processing

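Counts of the 38 genes called are given. The share of all genes called is not set beside most of them, so a change in a count may be shared by all genes. SI over LI in FB-like cells gave 0, and 1 with DESeq2, 4 with no filter on low counts, 1 with the replicate block and 0 to 6 with 1 library left out (6 without LI replicate 2, 3 without SI replicate 2). In all kept cells it gave 2 with no filter and 0 to 3 with 1 library left out, in SMC-like cells 1 and 0 to 2, and the replicate block gave 0 in both. In mesothelial-like cells the replicate block gave 2 and leaving out a library 0 to 11, and in neural progenitor-like cells 1 and 0 to 3. The highest of each came without LI replicate 2. The labels do not say whether a replicate number marks a shared experiment; deviations of same-numbered libraries correlated at r = 0.29 over 13344 genes, from 2 pairs, and a shared experiment was not tested further. With a library left out, its region has 1 library, assumed to vary like the others. SMC-like against FB-like cells gave 1, and 0 with DESeq2, with no library block, with sums thinned to equal totals and with doublet-scored cells kept. It gave 2 with no filter, with the stricter cell filter and with all mesenchymal clusters, 10 in S-called cells, and lower calls of 2 in G1-called cells, 31 at resolution 0.8 and 34 with no cell cycle regression. Leaving out a library gave 0 to 4 (1 lower call without LI replicate 1, 0 without LI replicate 2 or SI replicate 1, 4 without SI replicate 2). *Cdt1* turned to -0.11 at resolution 0.8 and -0.23 with no regression. Mesothelial-like against FB-like cells gave 30, but 7 with no library block, 3 in S-called cells and 12 to 31 with a library left out (12 without SI replicate 1), and *Rpa1* turned to 0.0092 in S-called cells. Neural progenitor-like against FB-like cells gave 27, but 5 in G1-called cells, where *Pola2* and *Pcna* turned to -0.19 and -0.0692. Neuron-like against progenitor-like cells gave 38, but 20 of 21 tested in G1-called cells. The interaction gave 3, and 1 with DESeq2 and with thinned sums, 5 with no filter, 10 with the replicate block, 9 with doublet-scored cells kept and 0 to 4 with a library left out. It gave 0 at resolution 0.8, with no regression, in G1-called or S-called cells and with the stricter cell filter. *Rrm2* turned to 0.12 at resolution 0.8, 0.37 with no regression and 0.28 in G1-called cells, *Tyms* to 0.016 with no regression and 0.0299 in G1-called cells, and *Pcna* to 0.0371 with no regression. The cause of these changes was not tested. Of 570 alternative values of 41 named calls, 495 kept direction and side of the threshold, 64 lost the call and 11 reversed.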
